A study of Mus musculus with 20 samples.

Results

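The protein components of the mitochondrial ribosome were followed through kidney tumours treated with a hydrogen sulfide donor, an antibody against the immune checkpoint receptor PD1, or both. Gene names that start with Mrpl or Mrps and a number were taken from the deposited table, and names marked as pseudogenes were left out. Of 78 such genes among the 34234 in the table, 77 reached 1 TPM (the share of a gene among all transcripts of a library, scaled to a constant total) in at least 5 of the 20 libraries, and these 77 are the members: 48 named for the large subunit (Mrpl) and 29 for the small subunit (Mrps). The least widely detected members, Mrps25 and Mrps30, reached 1 TPM in 17 libraries. Mrpl53, the name left out, reached it in 4 libraries, and its highest value was 1.50 TPM.

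The tumours grew in mice from MSRT1, a line that the labels give as renal medullary carcinoma, a kidney cancer known for loss of the chromatin remodelling subunit SMARCB1. The 20 mice, with 1 bulk RNA library each, form 4 groups of 5: GYY_PD1 received anti-PD1 and GYY4137, a compound that gives off hydrogen sulfide slowly; GYY_IgG received GYY4137 with control antibody (IgG); Veh_PD1 received vehicle with anti-PD1; and Veh_IgG received vehicle with IgG. Every group thus carries the same line and an antibody, and a single line stands for the cancer. Doses, schedules, host strain, age and sex are not given in the sources used here. A bulk tumour also holds host cells. Smarcb1 itself was read at 1.17 to 46.6 TPM in all 20 libraries. Whether these transcripts come from host cells or from the line was not tested, so the level of Smarcb1 does not check the line.

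Mitochondria keep a ribosome of their own, which makes the few proteins still encoded in mitochondrial DNA, all of them parts of the respiratory chain and ATP synthase. Its RNA comes from mitochondrial DNA, while all its proteins are encoded in the nucleus, made in the cytosol and imported, so the members are scattered over the genome (here over 17 chromosomes) and are read by the ordinary nuclear machinery. Some members have relatives in the bacterial ribosome and others were added in the mitochondrial lineage. Names do not always give the place: in human and pig structures Mrps18a and Mrps30 sit in the large subunit, and Mrps36 belongs to the 2-oxoglutarate dehydrogenase complex of the citric acid cycle and not to the ribosome.

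The stretch around the start of each gene was read for motifs that ubiquitous factors bind. The 4 promoters shown were picked from a panel of members chosen by role. They have the most kinds of motif in it, with a tie settled by alphabetical order that left out Mrps18c. Their richness in motifs thus comes from that choice. Between them they carry all 5 motifs searched: CCGGAAG (ETS family), GCGCANGCG (NRF1, a regulator of nuclear genes for mitochondria), AAGATGGCG (YY1), AAGGTCA (oestrogen-related receptors, ERR) and CACGTG (E-box). They belong to Mrpl36, a protein of the large subunit with bacterial relatives, at chr13:73330759-73331058 (plus strand); Mrpl12, a stalk protein, at chr11:120484387-120484686 (plus strand); and a pair from the Mrps18 family, Mrps18a at chr17:46110754-46111053 (plus strand) and Mrps18b at chr17:35916391-35916690 (minus strand). Sequences are from RefSeq on GRCm38.p6, 5′ to 3′ on the strand of the gene, 250 bases before to 50 bases after the start, with each motif on either strand in capitals.
Mrpl36: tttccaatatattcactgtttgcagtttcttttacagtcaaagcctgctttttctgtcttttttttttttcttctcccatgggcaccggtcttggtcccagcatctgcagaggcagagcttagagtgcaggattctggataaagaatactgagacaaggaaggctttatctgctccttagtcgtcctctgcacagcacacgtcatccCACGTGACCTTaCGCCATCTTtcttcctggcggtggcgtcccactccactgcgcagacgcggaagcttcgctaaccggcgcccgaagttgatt
Mrpl12: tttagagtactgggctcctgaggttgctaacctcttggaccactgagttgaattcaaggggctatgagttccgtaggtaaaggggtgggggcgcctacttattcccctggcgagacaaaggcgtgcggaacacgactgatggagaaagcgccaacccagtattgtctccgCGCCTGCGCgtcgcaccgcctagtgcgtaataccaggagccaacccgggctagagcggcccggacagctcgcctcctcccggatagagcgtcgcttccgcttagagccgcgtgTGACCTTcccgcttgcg
Mrps18a: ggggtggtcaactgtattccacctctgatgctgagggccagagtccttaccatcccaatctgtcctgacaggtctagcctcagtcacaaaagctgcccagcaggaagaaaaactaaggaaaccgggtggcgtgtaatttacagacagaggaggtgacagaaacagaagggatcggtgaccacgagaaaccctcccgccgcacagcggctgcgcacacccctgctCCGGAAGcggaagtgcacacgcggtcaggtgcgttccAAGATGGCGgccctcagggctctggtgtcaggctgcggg
Mrps18b: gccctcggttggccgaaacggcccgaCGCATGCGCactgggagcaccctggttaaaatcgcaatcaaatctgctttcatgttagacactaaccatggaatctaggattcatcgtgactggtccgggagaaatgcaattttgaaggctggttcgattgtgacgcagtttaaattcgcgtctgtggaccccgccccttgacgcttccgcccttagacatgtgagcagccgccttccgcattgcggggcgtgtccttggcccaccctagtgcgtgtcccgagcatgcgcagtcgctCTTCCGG

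In Mrpl36 an E-box at 43 bases before the start runs into an ERR motif, with which it shares bases, and a YY1 motif follows at 31 bases before the start. Mrps18a has an ETS motif 26 bases before the start and a YY1 motif just after it. Mrpl12 has an NRF1 motif 80 bases before the start and an ERR motif 33 bases after it. Mrps18b has an NRF1 motif 224 bases before the start and an ETS motif that ends its window. RefSeq windows were found for 68 of the 77 members, 74 windows in all. The ETS motif was found in 33.8% of the members' windows, against 17.7% of 11898 windows of tested protein-coding genes and 8.86% of all 32851 windows. NRF1 was found in 21.6% of the members' windows, against 13.0% and 6.25%, and YY1 in 10.8%, against 3.01% and 1.40%. ERR was found in 5.41% of the members' windows, against 3.24% and 4.72%, and the E-box in 9.46%, against 9.93% and 7.15%. Mrpl2 has overlapping windows that each hold the E-box. Counted by gene, the E-box was found in 7.35% of members, against 11.9% of tested coding genes and 8.09% of all genes. TATAAA was searched only on the gene's strand and only in a short stretch around the start, not in the whole window. No member window held it there, against 1.73% of the windows of tested coding genes. The windows of 24 members held none of the 5 motifs. These are matches of letters, not measured binding. The members' windows had a median GC content of 58.5%, against 60.7% in windows of tested coding genes.

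Many members start close to the start of a protein-coding gene on the opposite strand. In the GENCODE M21 annotation on mm10, 33 of the 77 members (42.9%) start within 1000 bases of such a start. Among tested protein-coding genes 2011 of 11853 (17.0%) do. Pairs that point away from each other were not separated from pairs that overlap at their starts. Mrpl43, for one, shares 33.4% of its exonic bases with its partner Twnk. Examples are Mrps12 with Sars2, the mitochondrial seryl-tRNA synthetase, 172 bases away, Mrps18b with Ppp1r10 at 45 bases and Mrps18c with Helq at 29 bases. Mrpl46 and Mrps11 are the one pair of members that lie next to each other. Exonic bases are shared with another gene by 32 members, in 27 of them with a gene on the opposite strand, and the sources used here do not say whether reads were counted by strand.

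Within control tumours the members spanned a 38.4-fold range of TPM, with a median over members of 22.9. The highest mean level in Veh_IgG tumours was that of Mrpl52, a large subunit protein found in mitochondria and not in bacteria, at 134 ± 35.7 TPM (SD, n = 5, as for the levels that follow). Mrps21, a small subunit protein, was next at 97.8 ± 22.6, and the large subunit proteins Mrpl42 at 86.3 ± 26.1, Mrpl30 at 72.5 ± 14.7, Mrpl14 at 62.1 ± 11.9 and Mrpl13 at 59.2 ± 12.5 came after it. From Mrps21 on, the gaps between these neighbours in the order lie within their SDs. At the low end Mrps25 had 3.48 ± 1.02 TPM, Mrps30 5.17 ± 0.97, Mrpl19 5.78 ± 0.82, Mrpl11 6.49 ± 0.82, Mrps35 8.57 ± 0.95 and Mrpl55 8.73 ± 2.24. Transcripts for one region of the particle could lie far apart in level: the stalk proteins Mrpl10 and Mrpl12 had 32.6 ± 7.36 and 33.0 ± 7.39 TPM, and Mrpl11, which sits at the base of the same stalk, 6.49. The medians of the ribosome parts were closer, at 29.5 TPM over the 31 large subunit proteins with bacterial relatives, 20.9 over the 19 of the mitochondrial lineage, 23.5 over the 17 small subunit proteins with bacterial relatives and 15.2 over the 9 of the mitochondrial lineage.

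**Figure D1:**
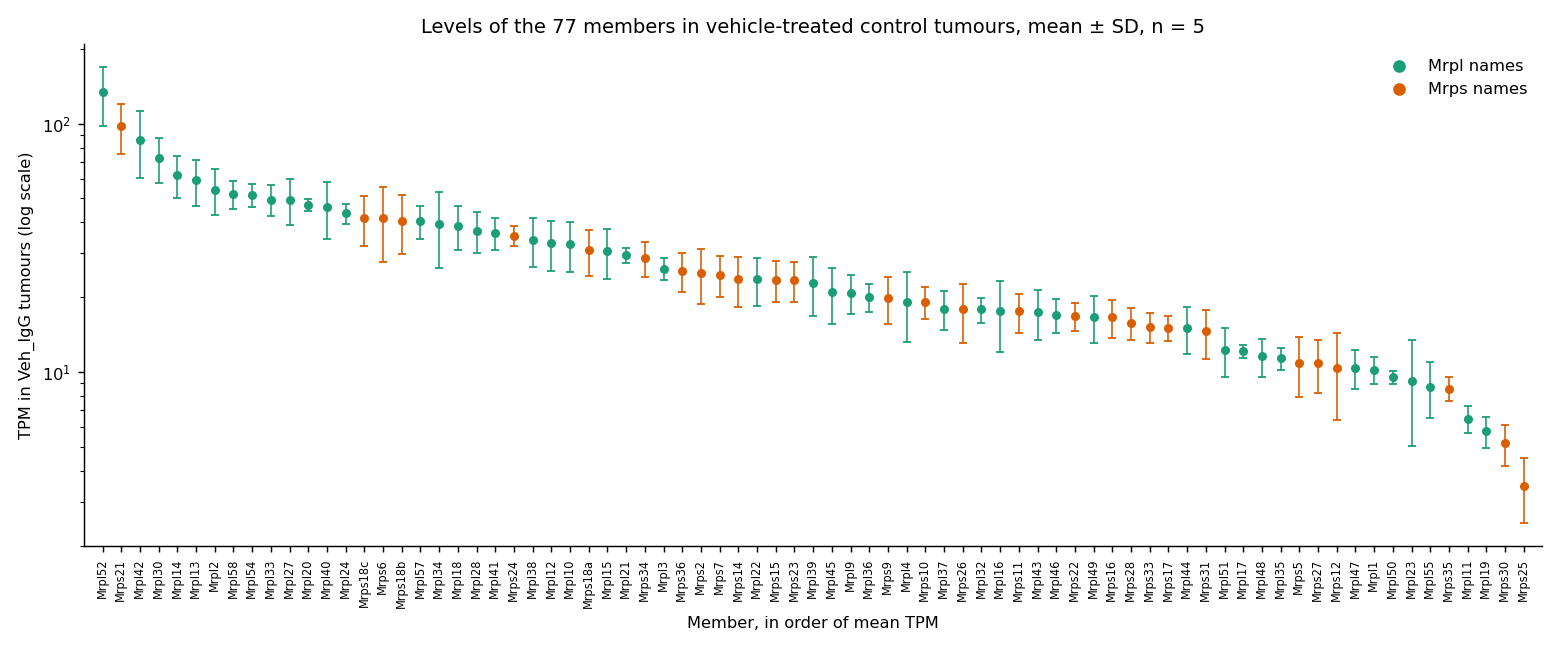
Mean TPM of each of the 77 members in the 5 Veh_IgG tumours on a log axis, in falling order, with SD bars and colours for Mrpl and Mrps names. The order runs down to 3.48 TPM for Mrps25 with no break between large and small subunit names.

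The order of the members was much the same in treated tumours. Across the 77 members, which are not independent replicates, the Spearman correlation of a library with the Veh_IgG mean was 0.941 to 0.992 in the 5 GYY_IgG libraries and 0.919 to 0.984 in the 5 Veh_PD1 libraries. In GYY_PD1 it was 0.972, 0.964, 0.847 and 0.935 in replicates 2 to 5 and 0.129 in replicate 1. Levels set in different libraries share TPM as their unit, which is a share of each library, so a library filled by other transcripts shows all members at fewer TPM.

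A family of 13 satellite-like gene models, predicted genes made of repeated sequence, took 25.8 to 83.4% of all TPM in GYY_PD1 libraries, 5.86 to 54.9% in GYY_IgG, 1.63 to 59.6% in Veh_PD1 and 3.53 to 13.2% in Veh_IgG. GYY_PD1 replicates 1 and 4 stood apart further: 32 and 54 of the 77 members reached 1 TPM in them, against 76 or 77 in each of the other 18 libraries. Replicate 1 was also the only library with members listed at 0, namely Mrpl4, Mrpl14, Mrpl22, Mrps11, Mrps18b, Mrps21, Mrps27 and Mrps36. TPM do not keep read numbers, so the depth of a library is unknown. Values are therefore given below as log2 TPM minus the median log2 TPM of the 15422 tested genes in the same library ("relative level"), and each comparison is also given without GYY_PD1 replicates 1 and 4. A relative level says where a member stands among the other genes of a tumour, and in bulk tissue fewer cells that express it and less RNA per cell cannot be told apart.

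As a whole, the members made up 0.335, 0.634, 0.520, 0.489 and 0.569% of protein-coding TPM in the 5 GYY_PD1 tumours (satellite-like models and olfactory and vomeronasal receptors left out). They made up 0.613, 0.601, 0.676, 0.563 and 0.638% in GYY_IgG tumours, 0.672, 0.727, 0.781, 0.591 and 0.553% in Veh_PD1 tumours, and 0.613, 0.677, 0.655, 0.633 and 0.703% in Veh_IgG tumours. The mean was 0.509 ± 0.112% in GYY_PD1, 0.618 ± 0.042% in GYY_IgG, 0.665 ± 0.094% in Veh_PD1 and 0.656 ± 0.036% in Veh_IgG (SD, n = 5 each). In GYY_PD1, 4 tumours lay below every Veh_IgG tumour and replicate 2 lay among them. In Veh_PD1 the tumours lay on both sides of the Veh_IgG range.

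**Figure D2:**
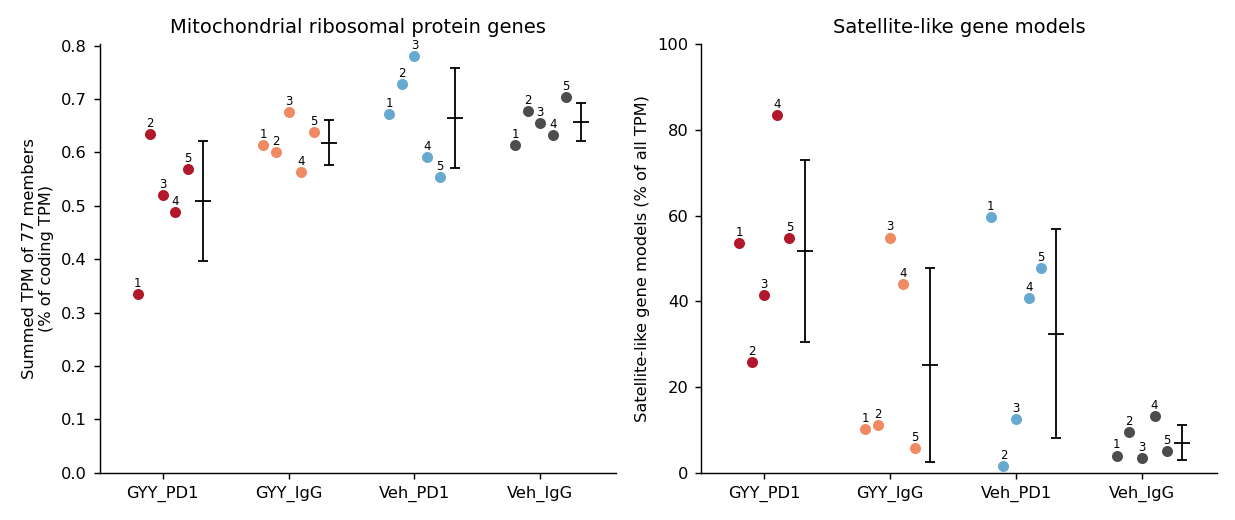
Left, summed TPM of the 77 members as a percent of protein-coding TPM in each library; right, satellite-like gene models as a percent of all TPM; points are libraries numbered by replicate and bars are mean ± SD (n = 5). The lowest member share, 0.335%, is GYY_PD1 replicate 1, and the highest satellite-like share, 83.4%, is GYY_PD1 replicate 4.

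With GYY4137 and anti-PD1 together, most members stood lower among the genes of the tumour than in control tumours, but no single member passed the test. Of the 77, 68 had a negative and 9 a positive log2 difference between GYY_PD1 and Veh_IgG, with a median of -0.39, against -0.17 over all tested genes. The signs of all tested genes were not counted, here or in the comparisons below. As their median was negative in each comparison, most of them were negative too. No member had an adjusted p under 0.05 in either direction (limma, Benjamini-Hochberg over 15422 genes), where the background was 0% of all genes in each direction. At an unadjusted p under 0.05, 28 members were lower and 1 higher, together 37.7% of the members, among 2605 of all tested genes (16.9%). Such counts of all genes, here and below, take both directions together. By library, 55, 46, 74, 69 and 63 of the 77 members lay below their Veh_IgG mean in GYY_PD1 replicates 1 to 5. These were a majority in each library, smallest in replicate 2. The same count was not made over all tested genes, whose median difference was also negative. Without replicates 1 and 4 the median was -0.23, against -0.04 over all genes, 69 members were negative and 16 had an unadjusted p under 0.05, all of them lower, among 1223 of all tested genes (7.93%). Of the 9 positive members only Mrpl48 and Mrpl40 were still positive without these replicates, and 6 of the 68 negative ones became positive, at 0.01 to 0.11. On the deposited scale, with no library median subtracted, 74 members were called lower and none higher, on a background of 69.9% of all genes lower and 0.311% higher, and the members' median was -2.31 against -2.09 over all genes. The members' median was negative under every scaling tried. It was -2.57 at the lowest, after rescaling to all nuclear protein-coding genes, where 95.3% of all tested genes were called lower. The negative sign there is thus shared with most genes. It was -0.20 at the highest, with the median of the genes above the mid-rank in level subtracted. With TPM rescaled to protein-coding genes free of satellite-like models it was -0.57. For the -0.20 and the -0.57 the median over all genes is not given.

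Negative differences were the majority in both subunits. Of the 17 small subunit proteins with bacterial relatives, 1 was positive and the median was -0.52, and of the 9 small subunit proteins of the mitochondrial lineage, 1 was positive with a median of -0.27. In the large subunit, 4 of 31 proteins with bacterial relatives were positive (median -0.34), as were 3 of 19 of the mitochondrial lineage (median -0.39). The stalk, which recruits translation factors, had 0 of 3 positive and a median of -0.70. The polypeptide exit tunnel and its rim had 2 of 7 positive (median -0.33). The central protuberance, a ridge that faces the small subunit, had 4 of 7 positive (median 0.07). Without replicates 1 and 4 the medians of the 4 ribosome parts were -0.26, -0.15, -0.24 and -0.21 in the order above, that of the stalk -0.38, that of the exit tunnel -0.17 and that of the central protuberance -0.18 with 2 of 7 positive. No difference between these regions was tested.

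**Figure D3:**
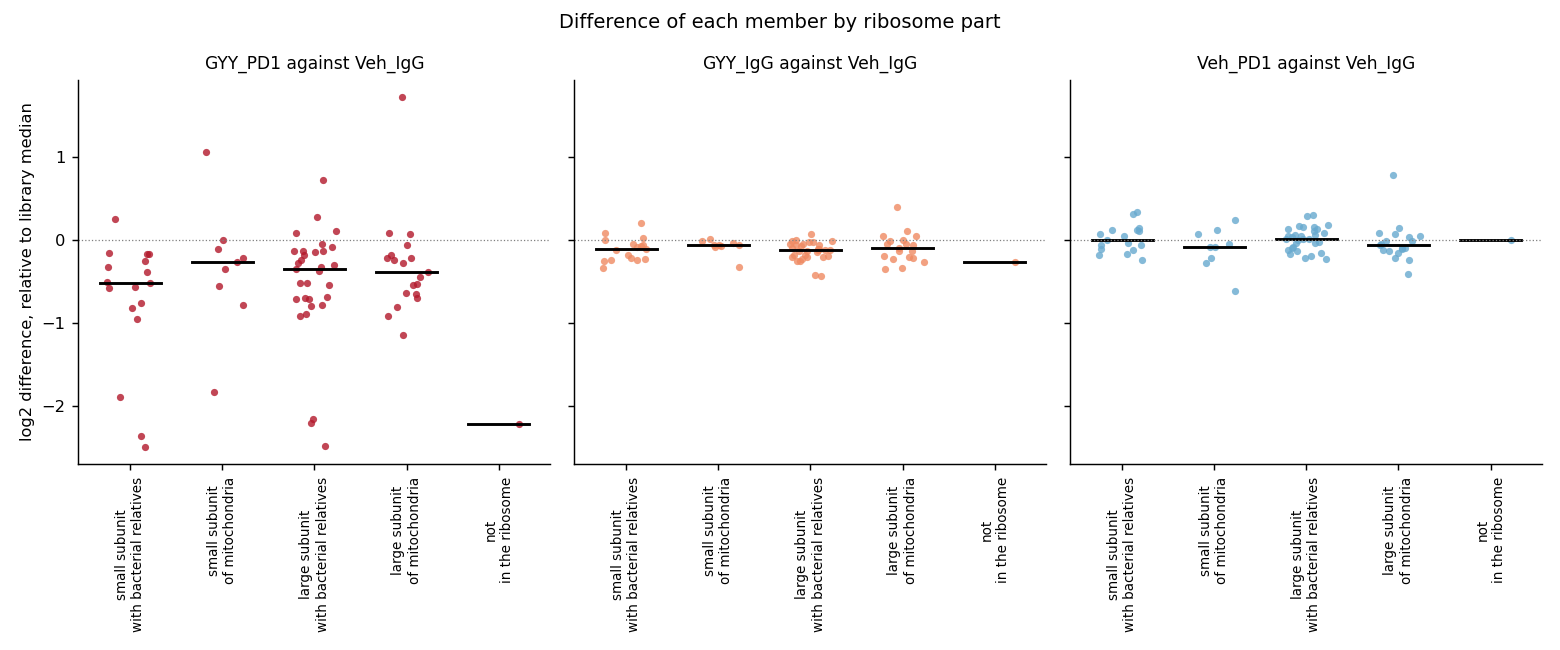
Log2 difference of each member in relative level, for GYY_PD1, GYY_IgG and Veh_PD1 against Veh_IgG, by ribosome part; points are members and black lines medians. In GYY_PD1 the medians of the 4 ribosome parts lie between -0.52 and -0.27, and in the other comparisons close to 0; the members near -2 in GYY_PD1 are those listed at 0 in its replicate 1.

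The 4 members with the smallest p among the lower ones were Mrps24, Mrpl52, Mrpl35 and Mrpl58, named by p-value and not as calls. Mrps24 (ENSMUSG00000020477.10, chr11:5703983-5715680, minus strand) is a small subunit protein with bacterial relatives. Mrps24 had relative levels of 1.23, 1.97, 1.56, 1.74 and 1.14 in GYY_PD1 tumours, 1.65, 1.67, 1.82, 1.56 and 1.83 in GYY_IgG tumours, 1.78, 2.22, 1.78, 1.80 and 1.70 in Veh_PD1 tumours, and 1.87, 2.33, 2.02, 2.05 and 1.94 in Veh_IgG tumours. Its GYY_PD1 values overlapped the Veh_IgG range only through replicate 2, and the difference was -0.51 ± 0.15 (SE; limma adjusted p = 0.222). All 5 GYY_IgG values were also below all Veh_IgG values, which held for 0.454% of all tested genes.

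Mrpl52 (ENSMUSG00000010406.12, chr14:54426909-54429756, plus strand) is the member with the highest level. Mrpl52 stood at 3.23, 3.76, 3.51, 2.95 and 3.54 in GYY_PD1 tumours, 3.60, 3.60, 3.94, 3.67 and 3.70 in GYY_IgG tumours, 3.75, 3.92, 3.65, 3.79 and 3.28 in Veh_PD1 tumours, and 3.88, 3.87, 3.69, 3.86 and 4.32 in Veh_IgG tumours. Replicate 2 again lay inside the Veh_IgG range and the other GYY_PD1 libraries below it, with a difference of -0.53 ± 0.16 (SE; limma adjusted p = 0.226). Mrpl35 (ENSMUSG00000052962.3, chr6:71812997-71826969, minus strand) is a large subunit protein with bacterial relatives. Mrpl35 stood at -1.53, 0.35, -0.19, -0.70 and -0.38 in GYY_PD1 tumours, 0.29, 0.40, -0.13, -0.25 and 0.51 in GYY_IgG tumours, -0.04, 0.87, 0.41, 0.36 and 0.38 in Veh_PD1 tumours, and 0.20, 0.49, 0.50, 0.35 and 0.45 in Veh_IgG tumours. Its lowest value was GYY_PD1 replicate 1, 4 of the GYY_PD1 libraries lay below every Veh_IgG library, and the difference was -0.89 ± 0.26 (SE; limma adjusted p = 0.226).

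Mrpl58 (ENSMUSG00000018858.15, chr11:115403752-115412674, plus strand), also called ICT1, is a hydrolase built into the large subunit that can free stalled ribosomes. Mrpl58 stood at 1.39, 2.46, 1.97, 2.26 and 2.17 in GYY_PD1 tumours, 2.58, 2.39, 2.22, 2.26 and 2.52 in GYY_IgG tumours, 2.62, 2.73, 2.31, 2.68 and 2.16 in Veh_PD1 tumours, and 2.52, 2.75, 2.52, 2.61 and 2.57 in Veh_IgG tumours. Every GYY_PD1 value was below every Veh_IgG value, which held for 1.63% of all tested genes. The difference was -0.54 ± 0.16 (SE, limma adjusted p = 0.230). Without replicates 1 and 4 the differences were -0.48 for Mrps24, -0.32 for Mrpl52, -0.48 for Mrpl35 and -0.39 for Mrpl58.

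Mrpl12 (ENSMUSG00000039640.7, chr11:120484613-120489065, plus strand) is a stalk protein that is also reported to bind the mitochondrial RNA polymerase. Mrpl12 stood at -0.21, 1.65, 1.34, 1.70 and 1.56 in GYY_PD1 tumours, 1.77, 1.50, 1.73, 1.87 and 1.68 in GYY_IgG tumours, 2.19, 2.19, 1.73, 1.58 and 1.32 in Veh_PD1 tumours, and 1.97, 1.78, 1.98, 1.79 and 2.06 in Veh_IgG tumours. The GYY_PD1 and Veh_IgG libraries did not overlap, with replicate 1 far below the other 4 of its group, and the difference was -0.71 ± 0.28 (SE; limma adjusted p = 0.257), or -0.40 without replicates 1 and 4. Its stalk partners Mrpl10 and Mrpl11 had differences of -0.70 and -0.55, or -0.26 and -0.38 without these replicates. Over all members, complete separation of GYY_PD1 from Veh_IgG held for Mrpl12 and Mrpl58 below and Mrpl48 above, on a background of 1.63% of all tested genes below and 1.63% above.

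Mrpl48 was the member with the largest positive difference. It is a large subunit protein of the central protuberance (ENSMUSG00000030706.17, chr7:100545751-100608301, minus strand). Mrpl48 stood at 4.84, 0.85, 1.02, 2.52 and 1.42 in GYY_PD1 tumours, 0.35, 0.33, 1.69, 1.22 and 0.45 in GYY_IgG tumours, 2.22, 0.50, 1.22, 0.97 and 1.09 in Veh_PD1 tumours, and 0.21, 0.81, 0.01, 0.61 and 0.43 in Veh_IgG tumours. All GYY_PD1 values were above all Veh_IgG values, highest in replicates 1 and 4. Such separation held for 1.63% of all tested genes. The difference was 1.72 ± 0.57 (SE; limma adjusted p = 0.233), but it was -0.20 on the deposited scale and -0.77 after rescaling to all nuclear protein-coding genes. Without replicates 1 and 4 it was 0.69 ± 0.35 (limma adjusted p = 0.660).

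In TPM the groups of Mrpl48 did not separate. The values were 16.8, 10.3, 10.7, 4.54 and 11.6 in GYY_PD1, 12.9, 13.3, 11.0, 7.88 and 13.3 in GYY_IgG, 13.5, 12.6, 17.3, 7.98 and 6.35 in Veh_PD1, and 12.6, 12.9, 8.04, 11.9 and 12.3 in Veh_IgG. The mean was 10.8 ± 4.37 TPM in GYY_PD1, 11.7 ± 2.33 in GYY_IgG, 11.5 ± 4.40 in Veh_PD1 and 11.6 ± 2.00 in Veh_IgG (SD, n = 5 each). Mrps2, a small subunit protein with bacterial relatives, had 7.85 ± 6.31 TPM in GYY_PD1 and 25.1 ± 6.31 in Veh_IgG. The relative level of Mrpl48 was 0.85 or more in each of the 10 libraries with over 20% satellite-like TPM and 0.01 to 1.22 in the 10 with less. Its 4 highest values were those of GYY_PD1 replicates 1 and 4, Veh_PD1 replicate 1 and GYY_IgG replicate 3. Of the exonic bases of Mrpl48, 8.7% are shared with Rab6a on the opposite strand. Whether satellite-like RNA has a part in the level of Mrpl48 was not tested.

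**Figure D4:**
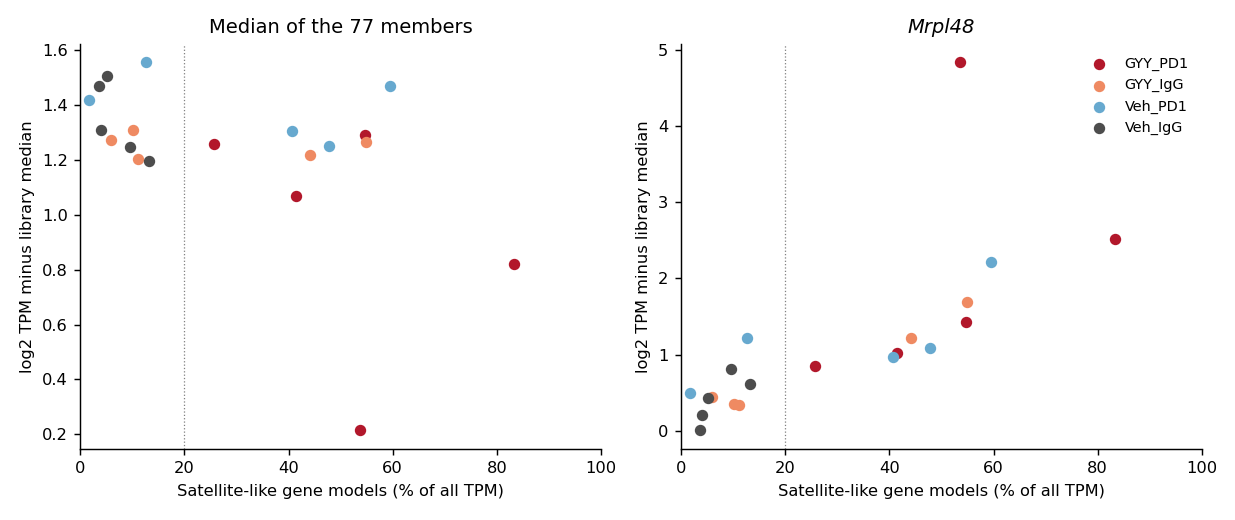
Median relative level of the 77 members (left) and relative level of Mrpl48 (right) against the percent of TPM in satellite-like gene models, 1 point per library, with the dotted line at 20%. The members' median is lowest in GYY_PD1 replicate 1, at 0.21, where Mrpl48 is highest, at 4.84; over 20%, the Mrpl48 points start at 0.85.

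The other 3 members at the upper end, Mrps25, Mrpl47 and Mrpl19, owed their place to 1 library. Mrps25 (ENSMUSG00000014551.8, chr6:92169525-92184033, minus strand) is a small subunit protein of the mitochondrial lineage, and 69.8% of its exonic bases lie opposite Nr2c2. Mrps25 stood at 5.08, -1.30, -1.85, -2.09 and -1.31 in GYY_PD1 tumours, -1.25, -1.18, -2.02, -1.35 and -1.04 in GYY_IgG tumours, -1.14, -1.0, -0.89, -1.62 and -1.75 in Veh_PD1 tumours, and -1.33, -1.55, -1.59, -1.34 and -0.93 in Veh_IgG tumours. Replicate 1 of GYY_PD1 was far above the other 19 libraries and the other 4 GYY_PD1 libraries lay within or below the Veh_IgG range. The difference was 1.06 ± 0.92 with replicate 1 (SE; limma adjusted p = 0.484) and -0.29 without it. Mrpl47 (ENSMUSG00000037531.8, chr3:32725397-32737605, minus strand), a large subunit protein near the exit tunnel, showed the same. Mrpl47 stood at 5.36, 0.01, -0.13, -0.24 and -0.08 in GYY_PD1 tumours, 0.12, 0.21, 0.21, 0.04 and 0.39 in GYY_IgG tumours, 0.11, 0.43, 0.84, -0.65 and 0.41 in Veh_PD1 tumours, and 0.27, 0.40, 0.33, 0.06 and 0.25 in Veh_IgG tumours. The other 4 GYY_PD1 libraries lay below the Veh_IgG range. Its difference was 0.72 ± 0.75 with replicate 1 (SE; limma adjusted p = 0.552) and -0.37 without it.

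Mrpl19 (ENSMUSG00000030045.10, chr6:81957851-81965958, minus strand), a large subunit protein with bacterial relatives, shares 36.0% of its exonic bases with Gcfc2. Mrpl19 stood at 2.01, -0.47, -0.85, -1.59 and -0.66 in GYY_PD1 tumours, -0.71, -0.68, -0.36, -0.73 and -0.54 in GYY_IgG tumours, -0.57, -0.19, -0.37, -1.02 and -0.70 in Veh_PD1 tumours, and -0.73, -0.60, -0.48, -0.63 and -0.46 in Veh_IgG tumours. Replicate 1 of GYY_PD1 was the highest of the 20 libraries, replicates 3 and 4 lay below the Veh_IgG range and replicates 2 and 5 within it. The difference was 0.27 ± 0.43 (SE; limma adjusted p = 0.706) and -0.31 without replicate 1. At the other end, the largest negative differences were those of Mrps21 (-2.49), Mrpl14 (-2.49) and Mrps18b (-2.37), 3 of the members listed at 0 in replicate 1. They were -0.26, -0.27 and -0.34 without replicates 1 and 4.

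**Figure D5:**
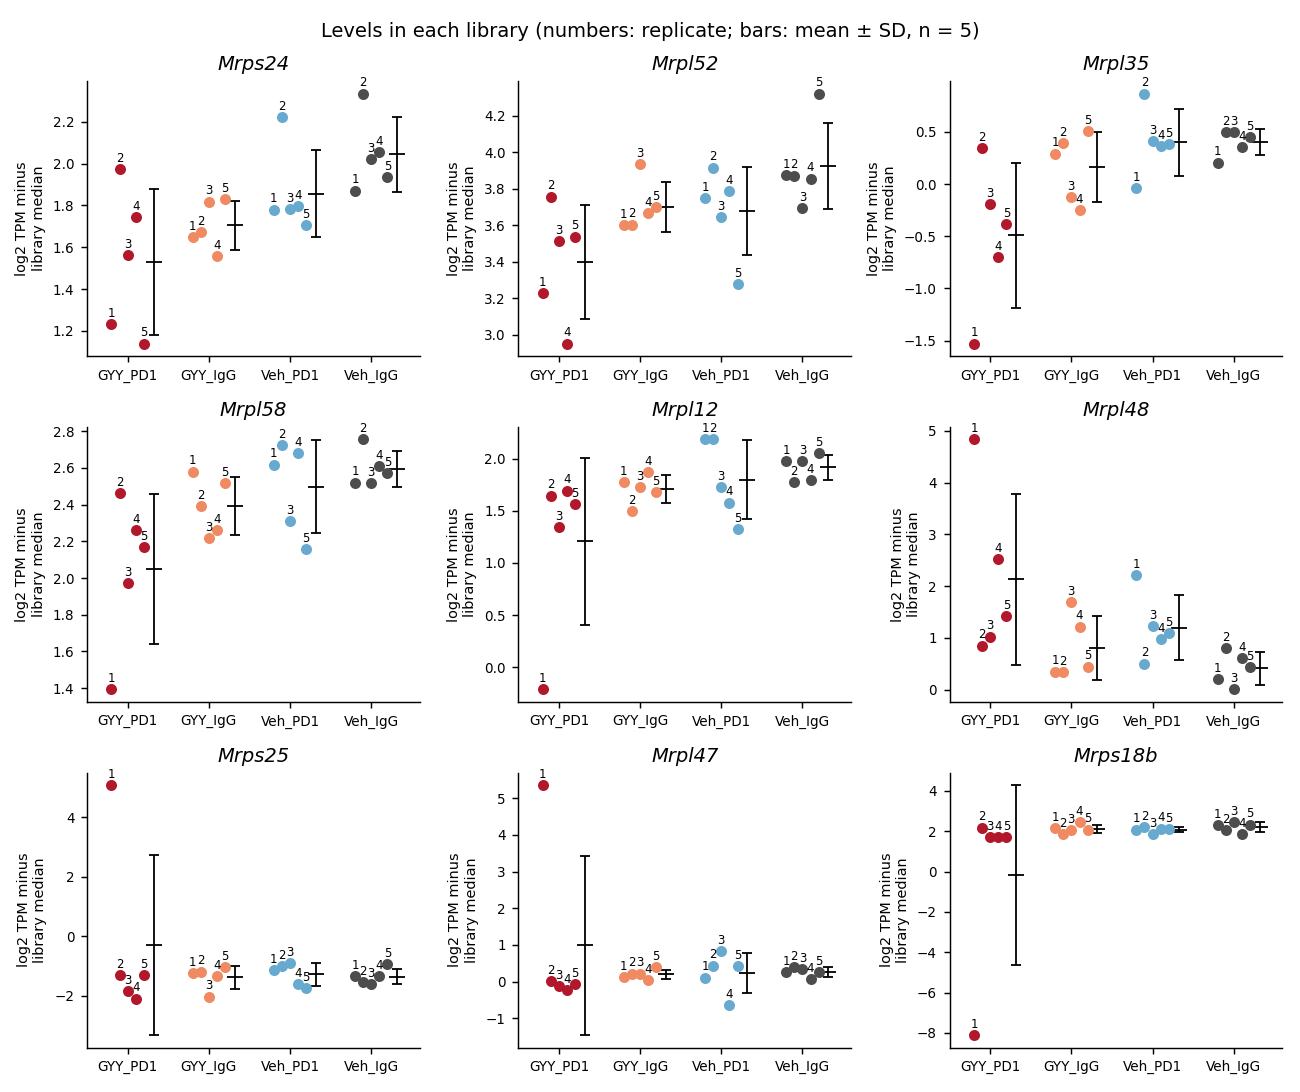
Relative level (log2 TPM minus the library median of tested genes) of 9 named members in each library, by group, with replicate numbers and mean ± SD (n = 5). Mrpl58 and Mrpl12 show no overlap between GYY_PD1 and Veh_IgG, Mrpl48 lies above in GYY_PD1, and Mrps25, Mrpl47 and Mrps18b are set by GYY_PD1 replicate 1. Separation of these groups held for 1.63% of all tested genes in each direction.

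The Mrps18 family gives 3 genes for relatives of a single bacterial protein, S18, of which Mrps18b and Mrps18c sit at different places in the small subunit and Mrps18a in the large one. In Veh_IgG tumours Mrps18c and Mrps18b had 41.7 ± 9.46 and 40.7 ± 10.8 TPM and Mrps18a 30.8 ± 6.49 TPM (SD, n = 5). Mrps18a was the lowest of the 3 in each of these libraries, and differences between the 3 genes were not tested. Mrps18a (ENSMUSG00000023967.9, chr17:46110986-46128910, plus strand) lies in the large subunit. Mrps18a stood at 0.85, 1.99, 1.79, 1.74 and 1.52 in GYY_PD1 tumours, 1.57, 1.50, 1.57, 1.37 and 1.82 in GYY_IgG tumours, 1.78, 2.06, 1.67, 1.39 and 1.78 in Veh_PD1 tumours, and 1.85, 1.56, 1.99, 1.84 and 1.86 in Veh_IgG tumours. Apart from GYY_PD1 replicate 1 the groups overlapped throughout, and the difference between GYY_PD1 and Veh_IgG was -0.24 ± 0.18 (SE; limma adjusted p = 0.410), or -0.06 without replicates 1 and 4.

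Mrps18b (ENSMUSG00000024436.16, chr17:35910379-35916389, minus strand) is a small subunit protein. Mrps18b stood at -8.12, 2.18, 1.71, 1.73 and 1.69 in GYY_PD1 tumours, 2.14, 1.87, 2.06, 2.45 and 2.08 in GYY_IgG tumours, 2.08, 2.22, 1.85, 2.14 and 2.11 in Veh_PD1 tumours, and 2.30, 2.05, 2.46, 1.87 and 2.33 in Veh_IgG tumours. The value of replicate 1 is a listed 0, replicate 2 lay among the libraries of the other groups, and replicates 3, 4 and 5 lay below all 15 of them. Mrps18c (ENSMUSG00000016833.14, chr5:100798627-100804471, plus strand) is the small subunit protein closest to bacterial S18. Mrps18c stood at 0.03, 2.04, 1.95, 1.02 and 2.12 in GYY_PD1 tumours, 2.16, 2.18, 2.11, 1.75 and 2.17 in GYY_IgG tumours, 2.32, 2.48, 3.03, 2.26 and 1.44 in Veh_PD1 tumours, and 1.99, 2.56, 2.17, 1.95 and 2.60 in Veh_IgG tumours. The lowest values were GYY_PD1 replicates 1 and 4, and the difference between GYY_PD1 and Veh_IgG was -0.82 ± 0.34 (SE; limma adjusted p = 0.267), against -0.22 without them.

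Proteins of the decoding site and of the membrane face gave no clearer separation. Mrps12 (ENSMUSG00000045948.8, chr7:28739641-28741820, minus strand) sits at the decoding centre, and mutations of its bacterial relative give streptomycin resistance. Mrps12 stood at -0.20, 0.32, -0.14, -0.24 and 0.38 in GYY_PD1 tumours, 0.03, -0.02, 0.60, 0.25 and 0.07 in GYY_IgG tumours, -0.30, 0.53, -0.48, 0.35 and 0.25 in Veh_PD1 tumours, and 0.45, -0.57, 0.23, 0.21 and 0.58 in Veh_IgG tumours. The 4 groups overlapped, and the difference between GYY_PD1 and Veh_IgG was -0.15 ± 0.24 (SE; limma adjusted p = 0.692), or 0.01 without replicates 1 and 4. Mrpl45 (ENSMUSG00000018882.12, chr11:97315716-97329920, plus strand) anchors the exit of the tunnel to the inner membrane. Mrpl45 stood at -1.11, 1.13, 0.82, 0.60 and 1.29 in GYY_PD1 tumours, 1.29, 1.14, 1.11, 1.18 and 1.23 in GYY_IgG tumours, 1.18, 1.42, 1.37, 1.33 and 1.13 in Veh_PD1 tumours, and 1.30, 1.08, 1.06, 1.29 and 1.52 in Veh_IgG tumours. GYY_PD1 replicates 1, 3 and 4 lay below the Veh_IgG range and replicates 2 and 5 within it, with a difference of -0.70 ± 0.30 (SE; limma adjusted p = 0.278) that came to -0.17 without replicates 1 and 4. Mrps30 (ENSMUSG00000021731.10, chr13:118378381-118387252, minus strand), a large subunit protein despite its name, was low throughout. Mrps30 stood at -2.74, -1.23, -0.90, -0.76 and -1.38 in GYY_PD1 tumours, -0.81, -0.71, -1.19, -0.74 and -0.96 in GYY_IgG tumours, -1.64, -0.73, -0.71, -1.14 and -1.55 in Veh_PD1 tumours, and -0.74, -0.85, -0.77, -0.72 and -0.67 in Veh_IgG tumours. Replicates 1, 2, 3 and 5 of GYY_PD1 were below every Veh_IgG library and replicate 4 lay within their range, and the difference was -0.65 ± 0.30 (SE; limma adjusted p = 0.288), or -0.42 without replicates 1 and 4.

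Other members of known role had differences on both sides with all libraries. The difference between GYY_PD1 and Veh_IgG was -0.52 for Mrps2, -0.51 for Mrpl3, near the peptidyl transferase centre, -2.16 for Mrpl4, which was listed at 0 in replicate 1, -0.30 for Mrpl36 and -0.18 for Mrpl44, a protein with a ribonuclease III fold. Leaving out replicates 1 and 4, these were -0.23, -0.14, -0.26, -0.43 and -0.02 in the same order. Mrps7, a protein of the small subunit head, had 0.26 with all libraries but -0.26 without replicates 1 and 4, and Mrpl55 had 0.08 but -0.18 without them. Mrps36, the member outside the ribosome, had -2.22, also with a listed 0, and -0.22 without replicates 1 and 4. Within groups the steadiest members were Mrpl38, with an SD of 0.14, Mrpl2 (0.16), Mrpl17 (0.19) and Mrpl37 (0.21), and their differences were -0.24, -0.28, -0.19 and -0.22. The most variable were Mrps21 (SD 2.56), Mrpl14 (2.39), Mrps18b (2.23) and Mrps36 (2.10), each of them through a listed 0. The median SD was 0.42 over the members, 0.51 over all tested genes and 0.41 over the 11875 tested genes listed at 0 in no library.

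With GYY4137 alone the members' differences from control tumours were small. Between GYY_IgG and Veh_IgG the median difference was -0.11, against -0.01 over all tested genes, with 67 members negative and 10 positive. None was called by limma (background 0% in each direction), and 1 member, Mrps24, had an unadjusted p under 0.05, with a difference of -0.34, a share of 1.30% near the 1.15% of all tested genes. By library 52, 67, 56, 58 and 53 of the 77 members lay below the Veh_IgG mean in GYY_IgG replicates 1 to 5. For all tested genes this count was not made. Without overlap of the libraries, 0 members were above (background 0.421%), and Mrpl46, Mrps24 and Mrps36 were below (background 0.454%). The largest positive differences were Mrpl48 (0.40), Mrps15 (0.21) and Mrpl51 (0.11), and the largest negative ones Mrpl14 (-0.44), Mrpl13 (-0.43) and Mrpl46 (-0.35). In the 3 GYY_IgG libraries with under 20% satellite-like TPM, a boundary chosen after the data were seen, the median was -0.08, and with TPM rescaled to protein-coding genes free of satellite-like models it was -0.06.

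Anti-PD1 alone split the members by library and not by direction. Between Veh_PD1 and Veh_IgG the median difference was -0.01 (0.05 when the median of the genes above the mid-rank in level set the scale), against -0.04 over all genes, with 37 members positive and 40 negative. None was called by limma (background 0% in each direction), and no member separated the groups in either direction (background 0.473% above and 0.324% below). Of the 77 members, 42, 14, 22, 56 and 60 lay below the Veh_IgG mean in Veh_PD1 replicates 1 to 5, a count not made over all tested genes. The 2 libraries in which most members lay above that mean, replicates 2 and 3, are those with 1.63 and 12.6% satellite-like TPM, and in replicates 1, 4 and 5 the share was 40.7 to 59.6%. The largest positive differences over all 5 libraries were Mrpl48 (0.79), Mrps15 (0.33) and Mrps6 (0.31), and the largest negative ones Mrps26 (-0.61), Mrps30 (-0.41) and Mrps27 (-0.27).

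Adding GYY4137 to anti-PD1 was measured by GYY_PD1 against Veh_PD1. The median difference was -0.39, against -0.12 over all genes, with 69 members negative and 8 positive. None was called by limma, on a background of 0% higher and 0.00648% lower. At an unadjusted p under 0.05 there were 24 lower members (31.2%) and 0 higher, among 1988 of all tested genes (12.9%). Mrps5 and Mrps6, both small subunit proteins with bacterial relatives, were lower in every GYY_PD1 library than in every Veh_PD1 library (background 0.687%) and 0 members were higher in every one (background 0.376%). The largest negative differences were Mrpl14 (-2.62), Mrps21 (-2.61) and Mrps18b (-2.24), and the largest positive ones Mrps25 (0.98), Mrpl48 (0.93) and Mrpl47 (0.76). Among libraries with over 20% satellite-like TPM, all 5 of GYY_PD1 and 3 of Veh_PD1, the median was -0.24 and 22 members were positive. Without GYY_PD1 replicates 1 and 4 it was -0.21, the 3 members named as most negative had -0.40, -0.37 and -0.22, and the 3 named as most positive had -0.21, -0.10 and -0.29.

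Adding anti-PD1 to GYY4137 was measured by GYY_PD1 against GYY_IgG. The median difference was -0.31, against -0.17 over all genes, with 60 members negative and 17 positive, and none was called by limma (background 0% in each direction). Mrpl4 was below in every library, with GYY_PD1 replicate 1 at a listed 0 (background 0.532%), and 0 members were above in every one (background 0.428%). The largest negative differences were Mrps21 (-2.42), Mrps18b (-2.28) and Mrpl4 (-2.14), and the largest positive ones Mrpl48 (1.32), Mrps25 (1.07) and Mrpl47 (0.79). Without replicates 1 and 4 the median was -0.15, the 3 members named as most negative had -0.19, -0.26 and -0.24, Mrpl48 had 0.29, Mrps25 -0.12 and Mrpl47 -0.26. The members' median was -0.55 with TPM rescaled to protein-coding genes free of satellite-like models, a scaling added after the data were seen. It was -0.15 with the median of the genes above the mid-rank in level. Both are given without the median over all genes. These comparisons share libraries with each other and with those against Veh_IgG.

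Whether the treatments together differ from the sum of each alone was measured by the interaction. Its median over the members was -0.24, against -0.11 over all genes, 58 members were negative and 19 positive, and limma called none (background 0% in each direction). At an unadjusted p under 0.05 there were 2 of the members (2.60%), near the 2.44% of all tested genes. The largest values were Mrps21 (-2.54), Mrpl14 (-2.18) and Mrps18b (-2.16) below, and Mrps25 (1.00), Mrpl47 (0.82) and Mrpl48 (0.54) above. Without GYY_PD1 replicates 1 and 4 the median was -0.09, the first 3 of these members had -0.30, 0.03 and -0.14, and the other 3 had -0.19, -0.23 and -0.50. The members' median was -0.47, against -0.31 over all genes, with TPM rescaled to protein-coding genes free of satellite-like models, and 6 members were then positive. It was -0.14 with the median of the genes above the mid-rank in level, given without that over all genes.

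Other genes of mitochondrial translation and of ribosomes were set beside the members, as differences in relative level against Veh_IgG. No gene of the lists below was called between GYY_PD1 and Veh_IgG. Of 82 cytosolic ribosomal proteins, 3 had a positive difference in GYY_PD1 and the median was -0.45, but without replicates 1 and 4 it was 26 of 82 with a median of -0.12. In Veh_PD1, 77 of the 82 were positive with a median of 0.17, while on the deposited scale 0 were positive and the median was -0.70. Of 38 subunits of respiratory complex I, some of whose partners this ribosome makes, 4 were positive in GYY_PD1 (median -0.39), or 6 without replicates 1 and 4 (median -0.20). Of 28 transcripts of mitochondrial DNA, 9 were positive in GYY_PD1 (median -0.60), or 1 without these replicates (median -0.53). The RNA of the small mitochondrial subunit, mt-Rnr1, was read at 13.5 to 42.9 TPM in GYY_PD1 and 35.2 to 85.4 TPM in Veh_IgG. That of the large subunit, mt-Rnr2, was read at 18.3 to 53.2 TPM in GYY_PD1 and 45.8 to 115 TPM in Veh_IgG. As relative levels both RNAs stood the other way round, mt-Rnr1 at 3.22 ± 1.14 in GYY_PD1 and 2.65 ± 0.70 in Veh_IgG, and mt-Rnr2 at 3.67 ± 1.12 in GYY_PD1 and 2.97 ± 0.73 in Veh_IgG (SD, n = 5 each). Neither passed the test (limma adjusted p = 0.490 and 0.382), and without replicates 1 and 4 the GYY_PD1 means were 2.43 and 2.88.

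Factors that act on the mitochondrial ribosome had differences in both directions in GYY_PD1 with all 5 libraries. Of 14 mitochondrial translation factors, 8 were positive in GYY_PD1 against Veh_IgG (median 0.19), among them the elongation factor Gfm1 (0.46) and the initiation factor Mtif3 (0.94), while the elongation factor Tufm had -0.06 and the leucine-rich RNA-binding protein Lrpprc -0.31. When replicates 1 and 4 were left out, 0 of the 14 were positive (median -0.11), and on the deposited scale 0 were positive too (median -1.73). Of 27 assembly factors 9 were positive (median -0.14, the same without these replicates). Of 13 genes for mitochondrial transcription, RNA processing and DNA upkeep 4 were positive (median -0.23), with Tefm, the elongation factor of mitochondrial transcription, at -0.89 and Tfam, which packs and transcribes the genome, at -0.45. Of the 6 ribosomal proteins under other names 3 were positive (median -0.11), with Dap3 at 0.01, Ptcd3 at -0.34 and Aurkaip1 at -0.55, and 0 without replicates 1 and 4 (median -0.16). The difference between these lists and the members was not tested.

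Markers of other cells a kidney tumour can hold had these levels beside the members. Summed as TPM rescaled to protein-coding genes, the 6 T cell markers ran 23.6 to 88.5 in GYY_PD1 and 6.45 to 9.92 in Veh_IgG, and the 5 markers of proliferating cells 87.4 to 518 in GYY_PD1 and 402 to 691 in Veh_IgG. Of the 4 T cell markers that passed the filter, 4 had a positive difference and none was called. The 5 macrophage markers ran 399 to 1536 in GYY_PD1 and 1310 to 1725 in Veh_IgG. Of the tissues rich in mitochondria, proximal tubule markers (6) ran 29.4 to 203 in GYY_PD1 and 32.6 to 112 in Veh_IgG, and muscle markers (5) 3.77 to 56.9 in GYY_PD1 and 1.85 to 473 in Veh_IgG. The 5 adipocyte markers ran 63.6 to 2918 in GYY_PD1 (median 98.5) and 20.6 to 213 in Veh_IgG (median 89.0). The 5 erythroid markers ran 18.3 to 307 in GYY_PD1 and 409 to 1085 in Veh_IgG, with no overlap, and as relative levels 0 of 5 were positive, with a median of -3.35, or -1.85 without replicates 1 and 4. The 6 distal nephron markers ran 11.0 to 117 in GYY_PD1 (median 63.6) and 5.32 to 299.6 in Veh_IgG (median 11.5). The 5 fibroblast markers ran 41.3 to 2312 in GYY_PD1 (median 120) and 9.75 to 329 in Veh_IgG (median 238). All 5 tested genes of each of these lists had a positive difference in relative level. The 4 neutrophil markers ran 9.49 to 5739 in GYY_PD1 and 79.4 to 1817 in Veh_IgG, with 1 of 4 positive. The 4 endothelial markers ran 47.7 to 365 and 34.9 to 205, with 4 of 4 positive. No marker gene was called. The part of these cells in the level of the members was not tested.

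Among themselves the members varied together only loosely. Over the 2926 pairs of members, the median Pearson correlation of relative levels was 0.31 over all 20 libraries and 0.34 over the 18 without GYY_PD1 replicates 1 and 4, with libraries and their scaling shared by every pair. In those 18 libraries the members with the highest median correlation with the others were Mrpl28 (0.60), Mrps28 (0.59) and Mrpl18 (0.59). Mrpl48 had the lowest, at -0.20, then Mrps2 at -0.19, Mrpl4 at -0.09, Mrps27 at -0.06 and Mrps12 at -0.06. The closest partner of Mrps18c was Mrpl18 (r = 0.81), of Mrps25 Mrpl49 (0.82), of Mrpl12 Mrpl34 (0.74) and of Mrps12 Mrpl4 (0.58).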

How the data were processed

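Total RNA of 20 kidney tumours was sequenced in bulk, and the deposited table holds log2 TPM for 34234 genes, with no constant added and 0 TPM written as -8.88. The submitters' processing notes list HTSeq 0.11.0, Salmon 0.14.1, fastp, cutadapt and mm10, without saying which made the TPM. TPM keep no read number, so depth is unknown and no counting error is given. Genes with at least 1 TPM in 5 libraries (15422) were kept, the median of these genes was subtracted in each library, and 1 model of the 4 groups over the 20 libraries was fitted with limma 3.58.1 in R 4.3.3 (trended variance shrinkage, 16 residual degrees of freedom, two-sided, Benjamini-Hochberg adjusted p under 0.05 over all tested genes). With differences in each library's median of up to several log2, a change in the deposited log2 TPM of one gene also carries the change of all others.

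Members and gene lists were chosen with earlier results of these data known. The genes named are up to 10 called members in each direction of a comparison (none was called), otherwise the 3 with the largest difference in each direction as values, the 6 highest and 6 lowest in Veh_IgG, a panel by role, and the 4 most and 4 least variable. Values in every library are given for 8 of the panel and for the 4 with the smallest p in each direction of GYY_PD1 against Veh_IgG. The members that separate groups completely, and those with extreme correlations, were chosen after their values were seen. Satellite-like models were found as predicted genes whose transcripts repeat themselves at a distance of 225 to 240 bases and share 10-base words with Gm10800. Positions and overlaps are from GENCODE M21 on mm10, in which 33928 gene names and all 77 members were found. The planned print of Mrps18 protein sequences was left out, as no protein table was used here. The test was checked on simulated data with the means and within-group spreads of these genes and changes set in GYY_PD1. Against Veh_IgG it called 14 of 50 genes set at a log2 change of 1 and 16 of 50 set at -1. It called 36 of 50 set at 2 and 29 of 50 set at -2, with 5 false calls. Many changes of these sizes were thus missed in the simulation, and smaller ones were not simulated. Its values were drawn independently, with the same spread for a gene in all groups. The departure of GYY_PD1 replicates 1 and 4 from their group was not simulated, so recovery in the data may differ. Other scalings, filters and left-out libraries were tried.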

Additional observations from a re-analysis of the deposited data

Results flagged for a closer look

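In groups of 5 libraries, the gap between the highest or lowest library and its nearest neighbour was set against the range of the group for 3 library measures and 15 members, 72 groups in all, of which chance would mark about 1 in 20. It passed the critical value of 0.71 in 7 groups, 5 of them through GYY_PD1 replicate 1. In that library Mrps18b stood at -8.12 (a listed 0), against 1.69 to 2.18 in the other GYY_PD1 libraries, Mrpl12 at -0.21, against 1.34 to 1.70, and Mrpl45 at -1.11, against 0.60 to 1.29. Mrps25 stood at 5.08 there, against -2.09 to -1.30, and Mrpl47 at 5.36, against -0.24 to 0.01. In GYY_IgG replicate 4 Mrps18c stood at 1.75, against 2.11 to 2.18 in the other 4 libraries, and in Veh_PD1 replicate 2 Mrps24 stood at 2.22, against 1.70 to 1.80. All are relative levels in log2.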

How the results depend on the processing

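Each comparison was recomputed under other scalings, filters, fits and left-out libraries. The count of called members stayed at 0 except in GYY_PD1 against Veh_IgG, where it was 74 on the deposited scale, 75 after rescaling to all nuclear protein-coding genes (satellite-like models included) and 62 without a filter, all lower, on backgrounds of 69.9, 95.3 and 19.0% of all tested genes. Under these 3 settings, in that order, the members' median was -2.31, -2.57 and -1.86 for GYY_PD1 against Veh_IgG, -0.50, -0.82 and -0.48 for GYY_IgG against Veh_IgG, -0.87, -1.14 and -0.71 for Veh_PD1 against Veh_IgG, -1.44, -1.44 and -1.17 for GYY_PD1 against Veh_PD1, -1.83, -1.79 and -1.41 for GYY_PD1 against GYY_IgG, and -0.90, -0.61 and -0.65 for the interaction. In these the library median was not removed or, without a filter, was taken over 34234 genes. Veh_PD1 libraries under 20% satellite-like TPM, an alternative chosen after seeing the data, gave 0.25 against Veh_IgG; they are the ones in which most members lay above the Veh_IgG mean, so the direction was known.

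Leaving out 1 library at a time, the median ran from -0.52 to -0.31 for GYY_PD1 against Veh_IgG, -0.12 to -0.07 for GYY_IgG against Veh_IgG, -0.06 to 0.02 for Veh_PD1 against Veh_IgG, -0.45 to -0.29 and -0.39 to -0.19 for GYY_PD1 against Veh_PD1 and GYY_IgG, and -0.33 to -0.18 for the interaction.

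Without GYY_PD1 replicates 1 and 4, 13 of the 77 members had the other sign in GYY_PD1 against Veh_IgG, 7 of them positive with all libraries. Of the members named in that comparison by size or p-value, 4 changed sign under some setting. Some settings left out libraries, and the mice numbered apart from the rest in the labels are GYY_PD1 replicate 1 and GYY_IgG replicate 5. On the deposited scale, after rescaling to all nuclear protein-coding genes and without a filter, in that order, Mrpl19 was -1.64, -1.75 and -1.20, Mrpl47 -1.19, -1.53 and -0.75 and Mrps25 -0.86, -0.90 and -0.42, and Mrpl48 was -0.20 and -0.77 under the first pair. With library weights, without the mice numbered apart, without GYY_PD1 replicates 1 and 4, and without these on coding TPM free of satellite-like models (added after seeing the data), in that order, Mrpl19 was -0.14, -0.31, -0.077 and -0.031, Mrpl47 -0.29, -0.37, -0.33 and -0.27, and Mrps25 -0.16, -0.29, -0.14 and -0.084. Leaving out 1 library at a time, Mrpl19 ran from -0.31 to 0.59, Mrpl47 from -0.37 to 1.03 and Mrps25 from -0.29 to 1.51, the lowest without GYY_PD1 replicate 1 and the highest without replicate 4.

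The labels do not say that replicate numbers pair the mice, and they were not taken to do so. Deviations from the group means correlated at -0.09 to 0.11 between same-numbered libraries. For 7 of 20 libraries the best match in another group had their own number. How many would match by chance was not computed. With a replicate block no member was called in any comparison, and 1 gene higher and 2 lower were called among all genes in GYY_PD1 against Veh_IgG, where none was called without it; the medians were the same by construction, -0.39 in GYY_PD1 against Veh_IgG. No other pairing was tried.

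Precision is limited by 5 libraries a group, by an unknown depth and by GYY_PD1 replicates 1 and 4.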
